A study of Homo sapiens with 2 samples.

Results

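The genes described here set the fate of pyruvate between the mitochondrion and lactate. They are the pyruvate dehydrogenase kinases PDK4 and PDK1, MPC2, LDHA, BSG and SLC16A7. They were chosen by name and with earlier results of these data known, and the expression values of PDK4 in the present comparison were among the reasons for the choice. All 6 were listed in both libraries, out of 10548 genes listed in both and 16145 listed in either. Differences of the 6 genes between the libraries are therefore descriptions, and none was tested.

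The data are RNA-seq of the human leukaemia line HAL-01, which the labels give as a pre-B acute lymphoblastic leukaemia. The library labelled AG came from cells given 0.8 mM 1,5-AG (1,5-anhydroglucitol, a sugar alcohol that resembles glucose) for 24 h. The library labelled Control came from the same line, and its treatment is not stated in the labels. There was 1 library per group, so no difference below has a replicate check. Each interval given is a 95% interval of counting error alone.

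Pyruvate made by glycolysis crosses the inner mitochondrial membrane through a carrier built of MPC1 and MPC2. The pyruvate dehydrogenase complex then turns it into acetyl-CoA. Pyruvate dehydrogenase kinases phosphorylate the E1 alpha subunit of the complex, encoded by PDHA1, and switch it off, and phosphatases such as PDP2 switch it on again. PDK4 is known for its induction by fasting, fatty acids, PPAR agonists and glucocorticoids, and PDK1 for its induction by hypoxia. Pyruvate kept out of this route is reduced to lactate by lactate dehydrogenase, of which LDHA encodes the M subunit. Lactate and pyruvate cross the plasma membrane through monocarboxylate transporters. SLC16A7 encodes MCT2, a transporter of high affinity, and BSG encodes basigin, the chaperone that brings MCT1 and MCT4 to the cell surface.

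The promoters of PDK4, PDK1 and LDHA are printed because the ratios of the 2 kinases were far apart, and because PDK1 and LDHA are textbook hypoxia targets. Each window runs from 250 bases before to 50 bases after a gene start of RefSeq in GRCh38.p14. Capitals mark ACGTG on either strand, the core letters of hypoxia response elements. The PDK4 window is chr7:95596467-95596766 on the minus strand. The PDK1 window, from the second of its listed starts, is chr2:172555840-172556139 on the plus strand. The LDHA window, from the first of its listed starts, is chr11:18394313-18394612 on the plus strand.
PDK4: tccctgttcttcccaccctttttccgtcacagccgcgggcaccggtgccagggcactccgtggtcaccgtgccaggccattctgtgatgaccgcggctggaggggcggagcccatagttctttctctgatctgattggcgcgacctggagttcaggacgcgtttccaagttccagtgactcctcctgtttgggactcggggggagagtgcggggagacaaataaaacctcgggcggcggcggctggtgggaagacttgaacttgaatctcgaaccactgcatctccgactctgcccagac
PDK1: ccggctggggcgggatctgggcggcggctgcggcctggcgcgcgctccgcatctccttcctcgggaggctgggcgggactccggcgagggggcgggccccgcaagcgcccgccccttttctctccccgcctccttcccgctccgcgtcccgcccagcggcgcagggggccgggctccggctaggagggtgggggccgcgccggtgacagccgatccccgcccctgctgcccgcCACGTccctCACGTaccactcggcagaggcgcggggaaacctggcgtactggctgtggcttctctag
LDHA: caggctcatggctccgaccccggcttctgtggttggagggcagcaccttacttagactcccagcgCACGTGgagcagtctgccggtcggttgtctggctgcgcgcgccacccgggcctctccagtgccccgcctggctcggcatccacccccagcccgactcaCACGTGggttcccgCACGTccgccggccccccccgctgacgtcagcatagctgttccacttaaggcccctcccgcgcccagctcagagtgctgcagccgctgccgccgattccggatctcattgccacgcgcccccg

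The PDK4 window held no ACGTG. The PDK1 window held 2 matches and the LDHA window held 5, of which 4 are both strands of CACGTG, whose letters overlap. Over the 12 windows of the 6 genes, 3 held ACGTG, the third being a window of BSG with 2 matches, and the other listed window of PDK1 and that of LDHA held none. ACGTG occurred in 21.4% of 35116 promoter windows of the same length. AGGTCA, the half-site of nuclear receptors such as the PPARs, was in 13.8% of all windows and in none of the 12 windows of the 6 genes. TGTTTAC, the core of the FOXO motif, was in 3.42% of all windows and, among the 6 genes, in 1 window of BSG. Both strands were searched for each motif. A window of 300 bases leaves out distant sites, so a missing match says only that these letters are not in it. The PDK4 window was 60.7% G and C, beside a median of 58.7% over all windows. The printed PDK1 window was 77.0% G and C, and the other listed window of PDK1 was 36.3%.

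Values are FPKM, the authors' fragments per kilobase of gene, scaled to the library total. The steps between FPKM values implied totals of 14857372 fragments for AG and 16240451 for Control. Whole fragment numbers behind each gene were recovered from the same steps. Genes were called expressed when their mean over both libraries was at least 1 FPKM, which held for 5528 genes and for all 6 described here. The difference is log2((AG FPKM + 1)/(Control FPKM + 1)), which understates the change of low genes, and it had a median of -0.03 over expressed genes. The plain FPKM ratio is given beside it.

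The marker genes did not follow the pre-B label. Of 10 markers of pre-B cells, 3 were listed in both libraries, and they summed to 2.61 FPKM in AG and 2.31 FPKM in Control. A further 3 had a value in Control alone, and 4 were not analysed here. Of 10 myeloid markers, 3 were not analysed here and 7 were listed in both. These 7 summed to 497 FPKM in AG and 952 FPKM in Control. CTSG alone had 194 FPKM in AG and 743 FPKM in Control, and without it the other 6 summed to 303 FPKM in AG and 209 FPKM in Control. Among these 7, ITGAM and S100A9 passed 1.5-fold towards AG, CTSG and MPO passed it towards Control, and 3 did not reach it. The part of this shift in the values below was not tested. Fewer cells of a type and less RNA per cell cannot be told apart in such bulk libraries. NKG7, a marker of T and NK cells, had 10.3 FPKM in AG and 17.2 FPKM in Control, and the other 4 markers of these cells were not analysed here. Of the erythroid markers HBB had a value in Control alone, at 0.0472 FPKM, and of the stromal markers COL1A1 had 0.0897 FPKM in AG and 0.0205 FPKM in Control, while the other 4 erythroid and 3 stromal markers were not analysed here.

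PDK4 stood apart from the other 5 genes. It had 9.42 FPKM in AG, from 636 fragments, and 0.0407 FPKM in Control, from 3 fragments. The counting intervals of these levels ran from 8.70 to 10.2 FPKM in AG and from 0.00838 to 0.119 FPKM in Control. They did not overlap, and neither did those of LDHA, BSG and SLC16A7, so this was not particular to PDK4. The share of such genes among all expressed genes was not counted. PDK4 was among the better expressed genes in AG, at rank 2139 of 13351 listed. It was close to the bottom in Control, at rank 12345 of 13342. The FPKM ratio was 232 (78.9 to 1127), and on the log2(FPKM + 1) scale the difference was 3.32. The width of the ratio's interval comes from the 3 Control fragments. A pseudocount of 0.1 FPKM gave 6.08 and one of 5 FPKM gave 1.52. The pseudocount changes the size of such a difference and cannot change its direction.

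**Figure D1:**
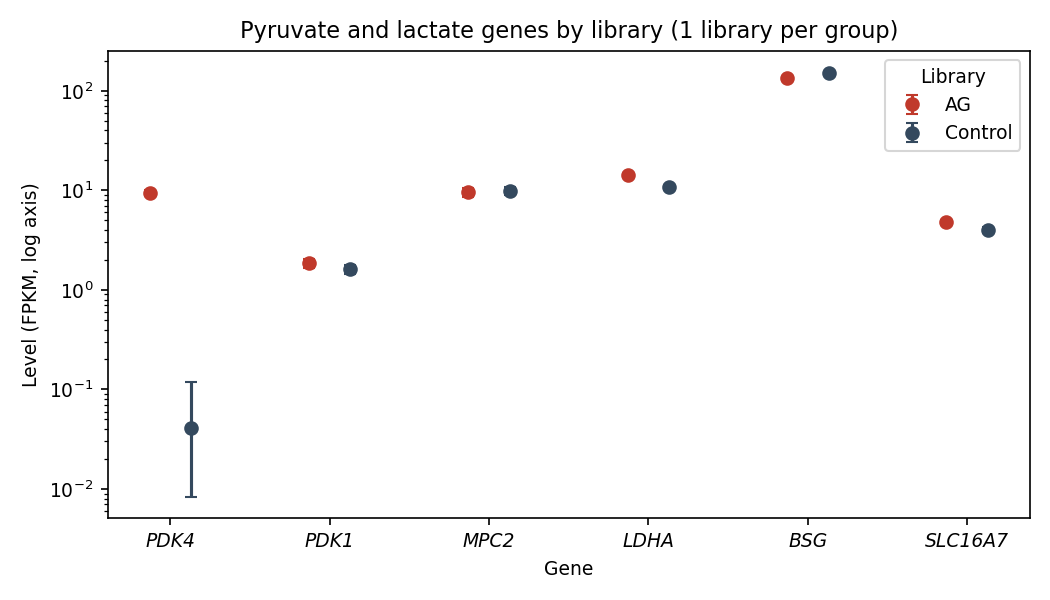
Level of the 6 genes (FPKM, log axis) in AG (red, left of each pair) and Control (dark, right), 1 library each, with bars for the exact 95% Poisson interval of the fragments. PDK4 lies at 9.42 FPKM in AG and 0.0407 FPKM in Control, and the 2 points of every other gene lie close together.

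Of the 6 genes, 1 passed 1.5-fold in the direction of higher AG values on the log2(FPKM + 1) scale, 0 passed it in the direction of lower values, and 5 lay inside that limit. Over all 5528 expressed genes, 3.6% passed it as higher in AG, 3.33% passed it as lower, and 93.1% lay inside. The 5 genes other than PDK4 therefore lay inside the limit, as most genes did. Their log2 differences ranged from percentile 25.7 (BSG) to percentile 93.1 (LDHA) of expressed genes. PDK4 ranked second among expressed genes by its log2 difference and first by its FPKM ratio. That ratio was one of the values known when it was chosen. PDK4 met the expression limit, a mean over both libraries, only through AG, as it had 0.0407 FPKM in Control. The ranks are therefore descriptions only.

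**Figure D2:**
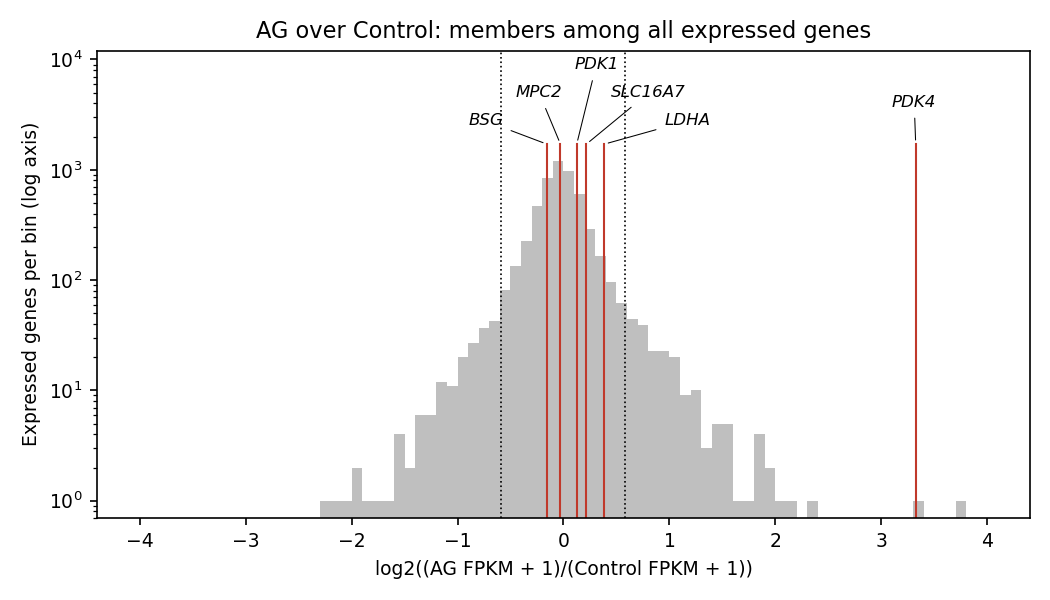
Histogram of log2((AG FPKM + 1)/(Control FPKM + 1)) over 5528 expressed genes (counts on a log axis), with red lines at the 6 genes and dotted lines at 1.5-fold. PDK4, at 3.32, lies far to the right, and the other 5 genes lie between -0.16 and 0.38.

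PDK1, the hypoxia-responsive kinase, did not share the difference of PDK4. It had 1.85 FPKM in AG, from 408 fragments, and 1.61 FPKM in Control, from 389 fragments, and the counting intervals of these levels overlapped. The ratio was 1.15 (0.995 to 1.32), an interval that includes 1. PDK4 made up 83.6% of the summed FPKM of PDK4 and PDK1 in AG, against 2.46% in Control, and the sum was 11.3 FPKM in AG and 1.65 FPKM in Control. Counted as fragments, without division by gene length, PDK4 made up 60.9% of the pair in AG and 0.765% in Control. PDK4 was thus the more abundant kinase transcript of the pair in AG, and PDK1 was in Control. PDK2 and PDK3, the other kinases of the family, were not analysed here.

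The kinases' target was nearly level between the libraries. PDHA1 had 23.5 FPKM in AG and 22.0 FPKM in Control, a ratio of 1.07 (0.996 to 1.15). The PDK4 level was 40.0% of the PDHA1 level in AG and 0.185% of it in Control, while PDK1 was at 7.86% in AG and 7.32% in Control. PDP2, the phosphatase that opposes the kinases, had 3.98 FPKM in AG and 3.67 FPKM in Control, a ratio of 1.09 (0.956 to 1.23). PDPR, the regulatory subunit of the phosphatase, had 4.81 FPKM in AG and 5.04 FPKM in Control, a ratio of 0.954 (0.860 to 1.06). All 3 intervals include 1. Of the 7 genes listed for the complex and its phosphatase, these were the 3 with values, and PDHB, DLAT, DLD and PDHX were not analysed here.

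MPC2, the carrier subunit, was at the same level in both libraries within counting error. It had 9.59 FPKM in AG and 9.80 FPKM in Control, a ratio of 0.979 (0.849 to 1.13) from 376 fragments in AG and 420 in Control. These fragment numbers took the gene length nearest to the annotated exons. The same FPKM values could also stem from 188 fragments in AG and 210 in Control, which would widen the interval to 0.799 to 1.20. On the opposite strand MPC2 overlaps DCAF6, with 10.2 FPKM in AG and 12.0 FPKM in Control. Whether the counting used strand is not stated, so reads in the overlap cannot be assigned with certainty. MPC1, the partner subunit, was not analysed here.

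LDHA was moderately higher in AG. It had 14.3 FPKM in AG, from 1280 fragments, and 10.7 FPKM in Control, from 1049 fragments, a ratio of 1.33 (1.23 to 1.45). The difference of 0.38 on the log2(FPKM + 1) scale lay at percentile 93.1 of expressed genes and under the 1.5-fold threshold. LDHA has near-identical processed pseudogenes, with which reads can be shared, so its level is uncertain. Of the 6 LDHAP pseudogenes named in the annotation, LDHAP2 and LDHAP3 were listed in both libraries. LDHAP2 had 1.09 FPKM in AG and 1.13 FPKM in Control, and LDHAP3 had 0.200 FPKM in AG and 0.367 FPKM in Control, so neither was higher in AG.

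The other lactate dehydrogenase genes with values were close to 0. LDHAL6A, a relative on the same chromosome as LDHA, had 0.234 FPKM in AG and 0.357 FPKM in Control, from 9 fragments in AG and 15 in Control. LDHC, the testis isoform, rested on 1 fragment in each library. LDHAL6B was listed in AG alone, at 0.0771 FPKM. LDHB, which encodes the H subunit, was not analysed here, so the balance of M and H subunits cannot be given.

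The 2 genes of monocarboxylate transport went opposite ways by small amounts. BSG had 136 FPKM in AG, from 8932 fragments, and 152 FPKM in Control, from 10887 fragments, a ratio of 0.897 (0.872 to 0.922). SLC16A7 had 4.77 FPKM in AG, from 972 fragments, and 3.97 FPKM in Control, from 884 fragments, a ratio of 1.20 (1.10 to 1.32). Both intervals exclude 1, and both differences were within 1.5-fold. Such intervals hold counting error alone. They also excluded 1 for 9 of 11 expressed TCA cycle genes, and for 0 of 3 expressed genes of the pyruvate dehydrogenase complex and phosphatase. The share over all expressed genes was not counted. The intervals narrow as fragment numbers rise, so these counts do not compare the lists with each other. By FPKM, BSG was at 28.5 times the level of SLC16A7 in AG and 38.2 times in Control. FPKM divides by implied lengths of 4418 bases for BSG and 13703 for SLC16A7. The fragment numbers, not divided by length, lie closer together. Basigin is named above as the chaperone of MCT1 and MCT4, not of MCT2. SLC16A1, which encodes MCT1, was listed in AG alone, at 0.583 FPKM, and was not compared. SLC16A3, SLC16A8 and EMB were not analysed here.

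In the order of levels, PDK4 was in the middle of the 6 genes in AG and last in Control. In AG the order was BSG, LDHA, MPC2, PDK4, SLC16A7 and PDK1, and the counting intervals of MPC2 (8.65 to 10.6 FPKM) and PDK4 (8.70 to 10.2 FPKM) overlapped. In Control it was BSG, LDHA, MPC2, SLC16A7, PDK1 and PDK4, and those of LDHA (10.1 to 11.4 FPKM) and MPC2 (8.89 to 10.8 FPKM) overlapped. The other neighbours in either order differed beyond counting error. FPKM divides by a gene length that covers all annotated exons. The length behind PDK1 was 14845 bases and that behind SLC16A7 13703 bases, against 4544 bases for PDK4, and a cell that uses a short transcript of a long gene model would then show too low a level. That length is the same in both libraries and cancels in the ratios.

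Among the 10548 genes listed in both libraries, few shared the near-absence of PDK4 in Control with a clear level in AG. A further 2803 genes were listed in AG alone. These could not be counted, as the files list no zeros. At no more than 0.5 FPKM in Control and at least 5 FPKM in AG there were 2 genes, PDK4 and HMOX1. The mirrored limits were met by 0 genes. With 1 FPKM in place of 5 FPKM, 56 genes were higher in AG and 68 met the mirrored limits. HMOX1, the haem oxygenase induced by oxidative stress and haem, had 5.78 FPKM in AG and 0.481 FPKM in Control, from 198 fragments in AG and 18 in Control, a ratio of 12.0 (7.41 to 20.7). Of the 552 genes listed in both libraries at or under the Control level of PDK4, 1 had at least 1 FPKM in AG, and that was PDK4 itself. The next of them reached 0.434 FPKM in AG, and their median in AG was 0.0312 FPKM. This set was bounded by the Control value of PDK4 itself, and PDK4 was chosen with its values known. The count is thus a description and no separate support.

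By the size of the log2(FPKM + 1) difference over the 2 libraries, the 5 genes nearest to PDK4 were FGR, CD1D, HMOX1, NCF1B and TMEM160. FGR, a kinase of the SRC family in myeloid cells, had the single larger difference, 3.79. CD1D, which presents lipid antigens, had 2.37 and HMOX1 had 2.19. NCF1B, a pseudogene almost identical to the oxidase subunit gene NCF1 and therefore uncertain, had 2.03, and TMEM160, a membrane protein, had 1.96. Each of these was at 0.481 FPKM or more in Control, above PDK4. With only 2 libraries, a like difference says nothing on whether genes vary together.

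**Figure D3:**
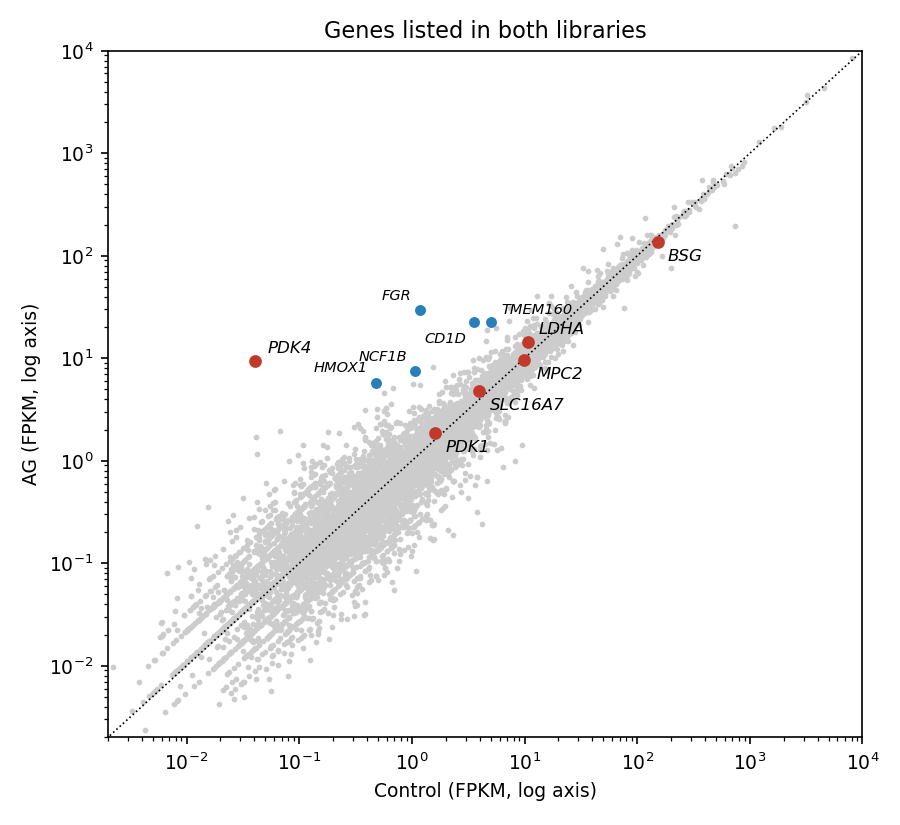
FPKM in AG (vertical) and Control (horizontal) of 10548 genes listed in both libraries, both axes log, with the 6 genes in red, the genes nearest to PDK4 in blue and equal levels on the dotted line. PDK4 lies at the far left, apart from the cloud, and the other 5 red points lie near the line.

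The lists below were chosen with earlier results of these data known. Each is given by its counts and its median, beside the median of -0.03 over expressed genes. Of all expressed genes, 3.6% passed 1.5-fold as higher in AG, 3.33% passed it as lower and 93.1% lay inside. The share of all expressed genes above 0 was not counted. Among 11 textbook regulators of PDK4, 3 were expressed in both libraries, of which 1 passed 1.5-fold as higher in AG and 2 lay inside that limit (median -0.04). PPARD, a nuclear receptor activated by fatty acids, had 18.5 FPKM in AG and 10.5 FPKM in Control, a ratio of 1.77 (1.61 to 1.94). PPARA, its relative in fatty acid catabolism, had 2.34 FPKM in AG and 2.44 FPKM in Control. FOXO3, a factor restrained by insulin signalling, had 6.38 FPKM in AG and 7.01 FPKM in Control. FOXO1, its relative, was under the expression limit at 0.757 FPKM in AG and 0.486 FPKM in Control, a ratio of 1.56 (1.06 to 2.31). PPARG, RXRA, ESRRA and NR3C1 were among the 6 not analysed here, and FOXO4 was listed in AG alone, at 1.60 FPKM.

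Among other targets of PPARs, 2 genes passed 1.5-fold as higher in AG on the log2(FPKM + 1) scale, PLIN2 and SLC25A20. Over all expressed genes, 3.6% did so. Of 15 on the list, 8 were not analysed here and 7 were expressed, 6 of them above 0 and 5 inside that limit (median 0.46). PLIN2, which coats lipid droplets, had 31.2 FPKM in AG and 7.41 FPKM in Control, a ratio of 4.21 (3.85 to 4.61). SLC25A20, which carries acylcarnitines into mitochondria, had 24.8 FPKM in AG and 11.9 FPKM in Control, a ratio of 2.08 (1.83 to 2.37). CD36, a fatty acid transporter inside the limit, had 3.56 FPKM in AG and 2.17 FPKM in Control, a plain FPKM ratio of 1.64 (1.44 to 1.87), and was named after its values were seen. The lowest were UCP2, a mitochondrial carrier, at 46.2 FPKM in AG and 46.9 FPKM in Control, and ETFDH, which passes electrons from fatty acid oxidation, at 1.90 FPKM in AG and 1.60 FPKM in Control. PDK4 was not on this list, and its ratio exceeded that of each member.

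The hypoxia list, which holds PDK1 and LDHA, had no expressed member past 1.5-fold on the log2(FPKM + 1) scale. Its 7 expressed genes of 16 had a median of 0.12, with 5 above 0 and 2 below. P4HA1, a collagen prolyl hydroxylase, had 27.8 FPKM in AG and 18.7 FPKM in Control, and VEGFA, the angiogenic growth factor, had 2.15 FPKM in AG and 1.40 FPKM in Control, a plain FPKM ratio of 1.54 (1.34 to 1.78). SLC2A1, the glucose transporter GLUT1, had 42.5 FPKM in AG and 51.6 FPKM in Control, and BNIP3, a mitophagy receptor, had 7.61 FPKM in AG and 8.19 FPKM in Control. LDHA thus ranged with the higher genes of this list and PDK1 with its middle.

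Glucocorticoid targets, another group that includes PDK4 in textbooks, were level or lower in AG. Of 6 on the list, 4 were expressed, all 4 within 1.5-fold and below 0 (median -0.16). FKBP5, a co-chaperone of the glucocorticoid receptor, had 15.4 FPKM in AG and 18.3 FPKM in Control, a ratio of 0.843 (0.799 to 0.889). PER1, a clock gene, had 1.60 FPKM in AG and 2.23 FPKM in Control. TSC22D3, which encodes GILZ, had 3.60 FPKM in AG and 3.88 FPKM in Control, and KLF9, a Krüppel-like factor, had 5.23 FPKM in AG and 5.33 FPKM in Control.

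The enzymes that make or use pyruvate outside the gate, and the TCA cycle beyond it, differed little. Of 9 such pyruvate enzymes, 3 were expressed and within 1.5-fold (median 0.06). ME1, the cytosolic malic enzyme that makes pyruvate and NADPH, had 13.1 FPKM in AG and 10.1 FPKM in Control, a ratio of 1.30 (1.16 to 1.46). MPST, a sulfurtransferase that yields pyruvate, had 9.08 FPKM in AG and 8.65 FPKM in Control, and PCK2, the mitochondrial PEP carboxykinase, had 3.37 FPKM in AG and 3.43 FPKM in Control. All 11 expressed TCA cycle genes of 18 were within 1.5-fold (median 0.14), with 9 above 0. SDHB, a succinate dehydrogenase subunit, was among the higher ones at 42.1 FPKM in AG and 35.9 FPKM in Control. IDH2, an isocitrate dehydrogenase, had 110.1 FPKM in AG and 115 FPKM in Control, and SDHC, another succinate dehydrogenase subunit, had 46.5 FPKM in AG and 46.7 FPKM in Control.

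**Figure D4:**
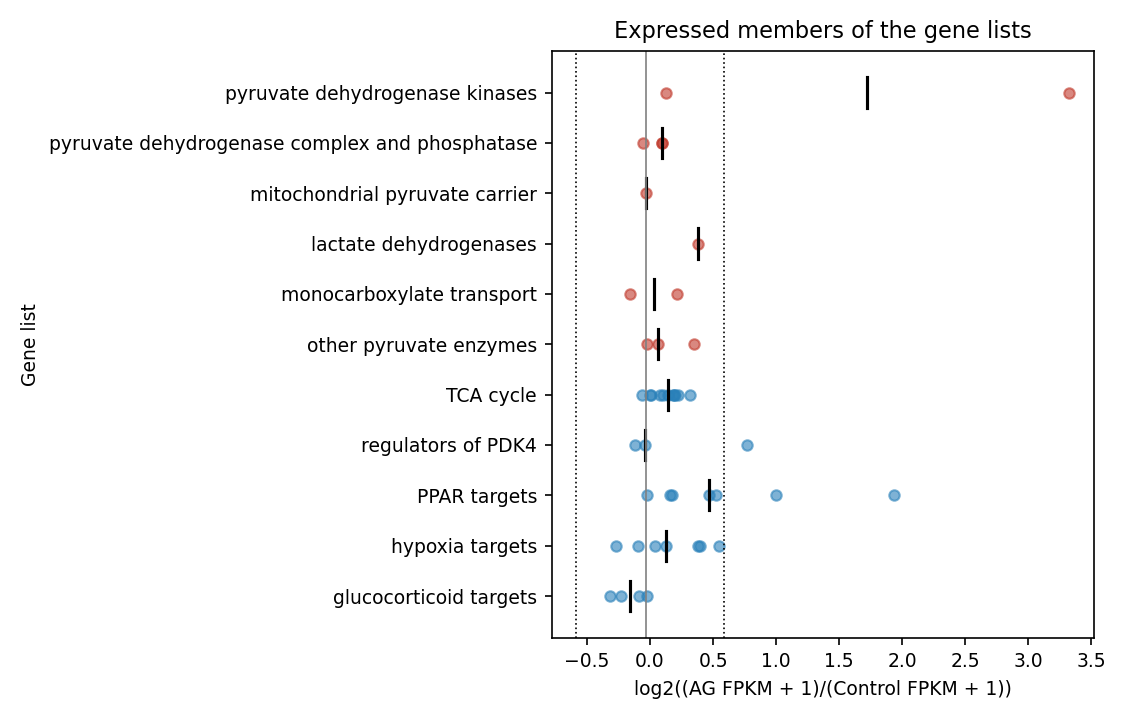
log2((AG FPKM + 1)/(Control FPKM + 1)) of the expressed genes of each list (points), with the list median (black bar), the median of all expressed genes (grey line) and 1.5-fold (dotted lines). Points past 1.5-fold are PDK4 at 3.32, PLIN2, SLC25A20 and PPARD.

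In GRCh38 coordinates of GENCODE 29, PDK4 (ENSG00000004799) spans 95583499 to 95596491 of chromosome 7, on the minus strand. PDK1 (ENSG00000152256) spans 172555373 to 172608669 of chromosome 2, on the plus strand. MPC2 (ENSG00000143158) spans 167916729 to 167937040 of chromosome 1, on the minus strand. LDHA (ENSG00000134333) lies on chromosome 11 at 18394388 to 18408425, BSG (ENSG00000172270) on chromosome 19 at 571277 to 583493 and SLC16A7 (ENSG00000118596) on chromosome 12 at 59596067 to 59789855, all on the plus strand. All 6 are protein-coding, and each value covers the exons of the whole gene. In GENCODE 29 no other gene overlapped PDK4, and no other gene within 250 kb of it was listed in both libraries. PDK1 and BSG each overlap an antisense gene, PDK1-AS1 and BSG-AS1, neither analysed here. LDHA overlaps ENSG00000256006, an intronic gene on the same strand, which had 0.499 FPKM in AG and 0.228 FPKM in Control.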

How the data were processed

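RNA-seq was measured in 2 libraries of HAL-01 cells, 1 labelled AG and 1 labelled Control. Per the labels' protocols, Trizol was used for extraction and a stranded TruSeq mRNA kit for the libraries. The deposited values are FPKM per gene, computed by the authors. Per the submitters' processing notes, the build was hg38 and the tools were HISAT2, HTSeq, Cufflinks and Trimmomatic. No versions, annotation release, strand setting or filters are stated there. The files list no zeros, so a gene without a value was not set to 0.

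Ensembl IDs were matched to symbols, and 97.1% of 16145 IDs were in GENCODE 29. Totals were the numbers that made FPKM times exon length whole, within 0.01 fragments, in 88.1% of 5259 single-transcript genes of AG and 88.4% of 5315 of Control. Fragment pairs came from the 2 printed FPKM values of a gene, at the length nearest to its annotated exons. FPKM ratios have exact Clopper-Pearson 95% intervals and levels have exact Poisson intervals. Fragments are not independent molecules, so both cover counting error only. FPKM is relative to the library total, so a change in abundant genes shifts all others.

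With 1 library per group the conditions were not tested against each other, and no count model was used. Genes, 11 lists of pathways and 5 of markers were chosen with earlier results of these data known. Named were the 6 genes, any gene of the lists on the pyruvate and lactate route, the 2 highest and 2 lowest expressed members of other lists, and the genes most like PDK4 by the stated limits. FOXO1, FOXO4, the marker genes and the genes that overlap or neighbour the 6 were named after their values were seen. A gene that this rule names is not reported here. The steps were tested on simulated data in which gene lengths equalled the annotated exon lengths. In the deposited values, 88.3% of expressed genes had an implied length within 10% of the annotated one. The simulation did not cover the other genes. The software was Python 3.11.15 with matplotlib 3.10.9, pandas 2.3.3, scipy 1.17.1 and numpy 2.4.6.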

Additional observations from a re-analysis of the deposited data

How the results depend on the processing

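Other pseudocounts, scalings and filters were tried on 19 results, with 103 recomputed values, of which 85 stayed within the counting interval or within 1.5 times the count. None changed the sign of a difference past 1.5-fold. A pseudocount cannot change that sign for a gene, and the scalings were too small to do so. This outcome is therefore no separate support. The 5 genes other than PDK4 stayed within their counting intervals under both pseudocounts and both scalings, though MPC2 crossed 0 under median-of-ratios scaling, at 0.004134. With a pseudocount of 0.1 FPKM, PDK4 was at 6.081, against 3.324 in the report, and the kinase median at 3.134, against 1.724, the midpoint of only PDK4 and PDK1, and 303 genes were higher and 328 lower by 1.5-fold. With one of 5 FPKM, PDK4 was at 1.516, the kinase median at 0.7836 and the PPAR target median at 0.2545, with 64 genes higher and 36 lower. With the filter raised to a mean of 5 FPKM, 76 were higher and 41 lower, and at 2-fold 65 were higher and 49 lower, against 199 and 184 at the settings of the report. That filter moved the medians of monocarboxylate transport to -0.1561 (otherwise 0.03), of other pyruvate enzymes to 0.2058 (0.06) and of PDK4 regulators to 0.324 (-0.04), since fewer genes were included. Without a filter the medians of lactate dehydrogenases and PDK4 regulators were 0.00384 (otherwise 0.38) and 0.1009, since low genes entered. Median-of-ratios scaling shifted plain log2 FPKM ratios by 0.04 and equal summed FPKM by 0.01, and less for low genes on the log2(FPKM + 1) scale.

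No paired analysis was possible because each group has 1 library, and no replicate was left out. The Control level of PDK4 rests on 3 fragments, and depth limits the precision of its ratio.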
